A study of Drosophila melanogaster with 4 samples.

Results

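The tailup domain is a stretch of 2L, the left arm of the second fly chromosome, in which binding sites of the Polycomb group protein Psc lie close together; it takes its name from the gene tup, to which the definition of the window refers. It was defined as every deposited Psc cluster (a region of enriched ChIP signal) that overlaps 2L 18720000 to 18950000 in FlyBase release 5 coordinates, counted from 1. This window held 84 of the 13747 clusters in the 3 deposited lists: 20 of 2628 in the list of ChIP replicate 1, 22 of 2432 in that of ChIP replicate 2, and 42 of 8687 in the list made from the replicate set, called the combined list. The window was chosen on these lists, and the combined clusters form a long row there. The number, crowding, coverage and replicate agreement of its clusters are therefore descriptions and were not tested. The files carry no gene names, and the RefSeq gene table used is of release 6, so the position of tup relative to single clusters was not examined and the name of the domain was not checked against the data.

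The 2 Psc ChIP samples and 2 input samples (fragmented chromatin that was not immunoprecipitated) all came from wild-type Oregon-R Drosophila melanogaster embryos labelled 14 to 16 h of development, reared in population cages and fixed with formaldehyde. Input 1 served the list of replicate 1 and input 2 that of replicate 2; the inputs have no list of their own here. Whole embryos pool many cell types, so binding in few cells and weak binding in many cannot be told apart. The labels do not say that the replicates were separate collections, so the spread between them may be technical. The read depth behind a cluster is unknown.

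Psc works with Polycomb, Polyhomeotic and Sce in Polycomb repressive complex 1, which helps to keep developmental genes silent in the cells that do not use them. In flies the complex is recruited to short DNA stretches called Polycomb response elements, from which Polycomb chromatin can extend over whole genes and their surroundings. The gene tup (tailup, locus tag Dmel_CG10619) encodes a LIM-homeodomain transcription factor, the fly counterpart of the vertebrate Islet proteins. It is known for its part in the identity and axon paths of subsets of embryonic neurons, in heart formation and in the amnioserosa, the extraembryonic tissue needed for germ band retraction. In the release 6 gene order, the genes next to tup on the side of lower coordinates are mRpL13 (a mitochondrial ribosomal protein), CG10602 and CG17321. On the side of higher coordinates they are mir-4946 (a microRNA), lncRNA:CR44737 and lncRNA:CR44739 (long non-coding RNAs). Whether these neighbours lie in the window was not examined.

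Psc clusters covered 30.1% of the window in replicate 1 and 28.9% in replicate 2, a mean of 29.5% ± 0.87 (SD, n = 2). In the rest of 2L the replicate clusters covered 4.27% ± 0.38 of the sequence (SD, n = 2). The combined clusters covered 60.8% of the window, against 11.9% of the rest of 2L. The window is 1.00% of the arm by length and held 4.61% of the 2L clusters of replicate 1, 5.24% of those of replicate 2 and 2.99% of those of the combined list. By covered length its shares of the arm were 6.28%, 6.79% and 4.92% in the same order of lists. The gap in coverage between the domain and the rest of the arm was larger than the spread between the replicates of either, and follows from how the window was picked.

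Joined where at most 10 kb lay between them, the 42 combined clusters made a single row of 228 kb, from 18720946 to 18948588. It was the longest of 535 such rows on 2L, where the next was 173 kb, and the sixth of 3075 in the series. The replicate lists, which hold fewer clusters, broke it into pieces under the same joining. In replicate 1 there were 4 pieces, of which the longest ran for 87.1 kb from 18861323 to 18948411 with 14 clusters. Replicate 2 gave 6 pieces, and its longest ran for 40.5 kb from 18776700 to 18817192 with 7 clusters. At this joining distance the lists thus differed in which part of the domain was the most continuous. In replicate 2 the right part was broken after 18869370 by a gap of 10555 bp, little more than 10 kb. It was broken again by a longer gap of 22766 bp, from 18898585 to 18921350.

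**Figure D1:**
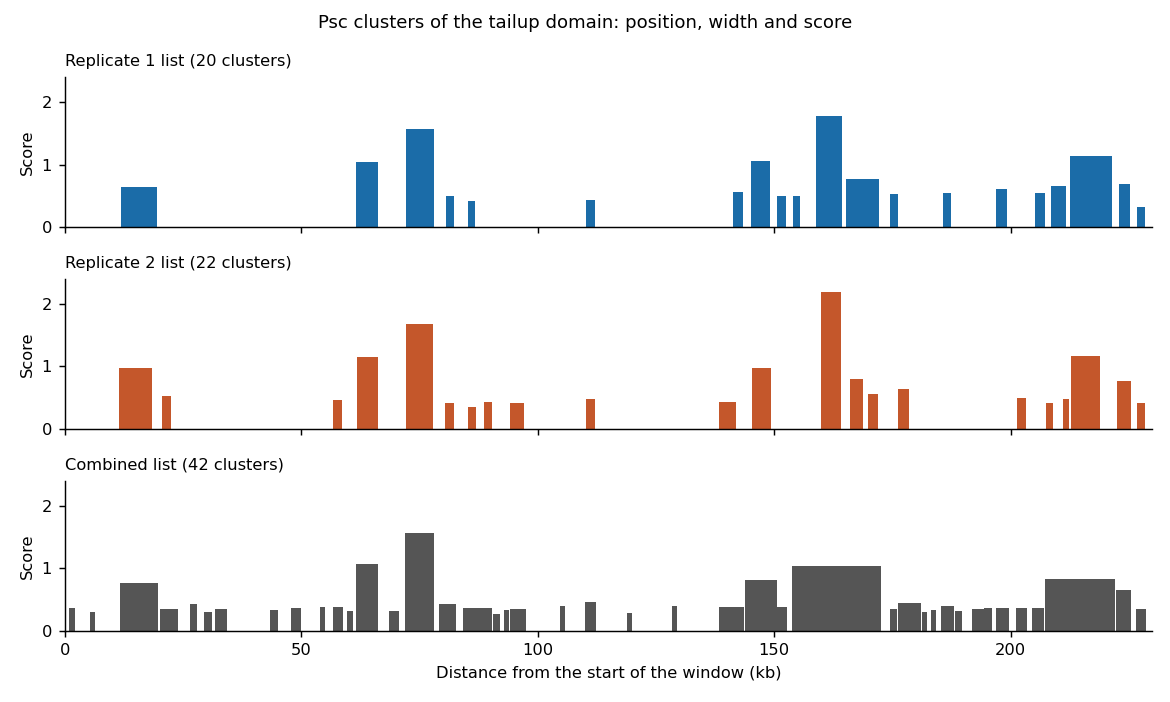
Each bar is a Psc cluster of the tailup domain, placed by its distance in kb from the start of the window; its width is the cluster's width and its height the authors' enrichment score, in the lists of replicate 1 (20 clusters), replicate 2 (22) and the combined list (42). The highest bars of both replicate lists stand near 75 kb and 162 kb, and no replicate cluster lies between 22.5 and 56.7 kb.

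The score attached to each cluster is the authors' enrichment value. Its scale is not stated in the sources used here, so scores were used to rank clusters within a list. The strongest Psc site of the domain in both replicate lists lay at 18878810 to 18884412 in replicate 1 and 18879926 to 18884071 in replicate 2. Its scores were 1.77 in replicate 1 (rank 44 of 2628) and 2.20 in replicate 2 (rank 17 of 2432). On 2L alone these are ranks 6 and 2. The next site was the same in both lists as well: 18792199 to 18798097 scored 1.56 in replicate 1 (rank 76) and 18792128 to 18797849 scored 1.67 in replicate 2 (rank 62). The midpoints of these 2 sites lay 86.5 kb apart in replicate 1 and 87.0 kb apart in replicate 2, so the highest scores stood at separate places well inside the row.

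A further 4 sites were in the upper quartile by score of both lists. The site at 18932587 to 18941503 in replicate 1 was 8917 bp wide, the widest replicate cluster of the domain, and scored 1.14; in replicate 2 it spanned 18932768 to 18938997 and scored 1.16. The site at 18781625 to 18786260 in replicate 1 scored 1.04, and its replicate 2 partner, 18781791 to 18786175, scored 1.15. It lies 5938 bp in replicate 1, and 5952 bp in replicate 2, to the left of the second strongest site. The site at 18865205 to 18869202 in replicate 1 scored 1.06, and that at 18865365 to 18869370 in replicate 2 scored 0.98. The last of the 4 flanks the strongest site on its right: it scored 0.78 in replicate 1 (18885225 to 18892075) and 0.80 in replicate 2 (18886048 to 18888877).

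All 6 upper-quartile clusters of replicate 1 in the domain were thus paired with an upper-quartile cluster of replicate 2. In the whole replicate 1 list this held for 65.4% of upper-quartile clusters. Replicate 2 had 8 upper-quartile clusters in the domain, of which 6 had such a partner, against 70.7% over its list. The other 2 did overlap a replicate 1 cluster, of a lower rank. One was 18731547 to 18738467, with a score of 0.98 in replicate 2 (above 87.5% of the list), whose partner 18731921 to 18739613 scored 0.65 (above 67.4% of the replicate 1 list). The other was 18942408 to 18945468, with 0.76 (above 81.1%), whose partner 18942866 to 18945274 scored 0.69 (above 72.3%). The 6 sites strong in both lists made up 51.9% of the length covered in the domain in replicate 1 and 41.1% in replicate 2.

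Most clusters of the domain were of ordinary rank. The median cluster of the domain scored 0.59 in replicate 1, above 54.7% of the list, and 0.51 in replicate 2, above 45.5% of the list. In the rest of the series the medians were 0.57 and 0.52. The upper quartile, by construction 25% of each list, held 6 of 20, 8 of 22 and 10 of 42 clusters of the domain in replicate 1, replicate 2 and the combined list. Domain clusters were wider, with medians of 2200 bp in replicate 1 and 2246.5 bp in replicate 2, against 1769 and 1813.5 bp in the rest of the series. Clusters of at least 3000 bp numbered 8 of 20 in replicate 1 and 9 of 22 in replicate 2, against 16.6% and 17.6% of the whole lists. In the combined list they numbered 13 of 42, against 9.20%.

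Within the domain, wide clusters were the high-scoring ones. The rank correlation of width and score was 0.87 over 20 clusters in replicate 1, 0.78 over 22 in replicate 2 and 0.59 over 42 in the combined list. In the rest of the series it was 0.55, 0.62 and 0.04 over 2608, 2410 and 8645 clusters. These are descriptions across clusters that share a library and a calling procedure, and the differences were not tested.

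Of the replicate 1 clusters in the domain, 14 of 20 (70.0%, exact Clopper-Pearson 95% interval 45.7 to 88.1) overlapped a replicate 2 cluster by at least 1 bp, against 51.4% of the whole replicate 1 list. Of the replicate 2 clusters, 16 of 22 (72.7%, 49.8 to 89.3) overlapped a replicate 1 cluster, against 58.7% of that list. The intervals cover counting error only and take the clusters as independent, although they share 2 libraries and were picked as a window. They are therefore no test of the domain against the list. The same applies to the intervals given below for combined clusters. By length, 46823 bp were covered in both lists and 88784 bp in either, a shared part of 52.7%, against 43.1% in the whole series. A further 22390 bp were covered in replicate 1 alone and 19571 bp in replicate 2 alone.

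The overlapping clusters formed 14 pairs in which each cluster was the other's longest overlap. The starts differed by a median of 210.5 bp and the ends by a median of 221 bp, against 212 bp and 224.5 bp over the other 1280 pairs of the series. Within 200 bp lay 7 of the 14 starts and 7 of the 14 ends, against 617 and 607 of the 1280. Strong sites also differed in outline. At the strongest site the starts differed by 1116 bp. The ends of the pair on its right differed by 3198 bp, the largest end difference of the domain. The tightest pair was a weak site, 18805295 to 18806842 in replicate 1 and 18805272 to 18806880 in replicate 2, whose starts differed by 23 bp and ends by 38 bp. Its scores of 0.42 and 0.35 were above only 8.30% and 4.11% of the clusters of the lists. The isolated site at 18830152 to 18832062 in replicate 1 and 18830148 to 18832164 in replicate 2 had starts 4 bp apart and ends 102 bp apart. It scored 0.43 and 0.48. In both of these low-ranking pairs the starts and ends differed by less than the median of the series.

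Other pairs met only at their edges. The clusters at 18861323 to 18863339 in replicate 1 and 18858330 to 18862013 in replicate 2 shared 691 bp, 13.8% of the span of both. Those at 18928590 to 18931737 in replicate 1 and 18931075 to 18932448 in replicate 2 shared 663 bp, 17.2% of the span. Scores of the 14 pairs had a rank correlation of 0.90, against 0.80 over the other 1280 pairs, given as a description since the points share 2 libraries.

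**Figure D2:**
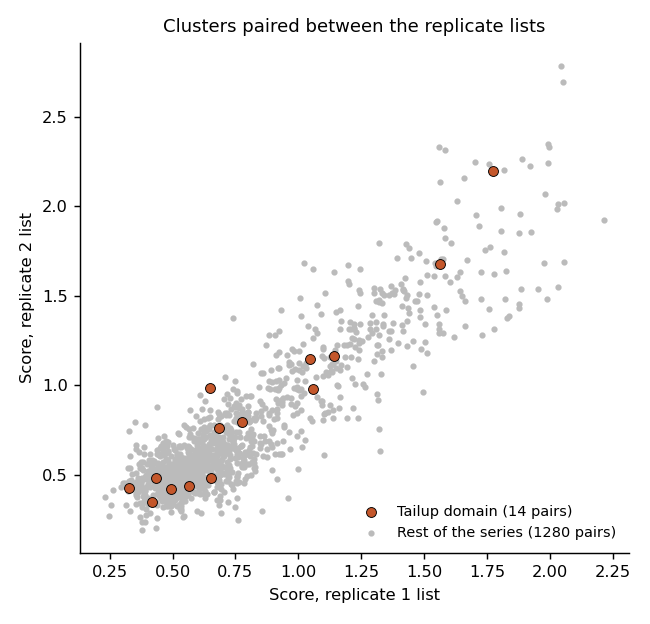
Scores of clusters paired between the replicate lists, replicate 1 on the horizontal and replicate 2 on the vertical axis (authors' score, scale not stated); the 14 pairs of the tailup domain are drawn over the 1280 other pairs of the series. The domain's pairs run from 0.33 and 0.42 at the weakest replicate 1 cluster to 1.77 and 2.20 at the strongest site, inside the cloud of the other pairs.

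The 12 clusters without a partner were of middling or low rank. The 6 found in replicate 1 alone scored 0.50 to 0.61 and were 1416 to 2339 bp wide; the 14 shared ones of that list scored 0.33 to 1.77 and were 1548 to 8917 bp wide. The 6 found in replicate 2 alone scored 0.41 to 0.63 with widths of 1686 to 3001 bp, and the 16 shared ones of that list 0.35 to 2.20 with 1374 to 6921 bp. The highest-ranking of them by percentile was 18896252 to 18898584 in replicate 2, with a score of 0.63, above 71.8% of the list. It lay 128 bp from 18894501 to 18896123, a replicate 1 cluster (score 0.54) that also lacked a partner. In all, 4 of the 12 lay within 1000 bp of a cluster of the other list. The distances and ranks of unpaired clusters were not examined over the whole lists. Neither can therefore be called particular to the domain. All 12 overlapped a combined cluster, as did all 20 replicate 1 and all 22 replicate 2 clusters of the domain; over the whole lists 96.3% of replicate 1 and 97.4% of replicate 2 clusters did so.

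The unpaired clusters of replicate 1 all lay between 18870616 and 18927213, in the right part of the domain. Their starts and ends were 18870616 to 18872580, 18874049 to 18875464, 18894501 to 18896123, 18905648 to 18907407, 18916864 to 18919202 and 18925153 to 18927213. Of those of replicate 2, 4 lay further left: 18740491 to 18742510, 18776700 to 18778642, 18808693 to 18810378 and 18814192 to 18817192. The remaining 2, 18896252 to 18898584 and 18921351 to 18923297, lay within the stretch that held the unpaired clusters of replicate 1. A cluster missing from a list was below the authors' threshold or could not be called there, and its signal is unknown.

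The rest of the shared clusters had scores of at most 0.56 in replicate 2. The clusters at 18800565 to 18802319 in replicate 1 and 18800325 to 18802241 in replicate 2, just right of the second strongest site, scored 0.49 and 0.42. At the right end of the domain, 18946748 to 18948411 scored 0.33 in replicate 1, above 0.951% of its list, and 18946635 to 18948514 scored 0.42 in replicate 2, above 17.1% of its list. Replicate 2 had 2 more shared clusters that were not the longest overlap of a replicate 1 cluster. They were 18889751 to 18891910 (score 0.56), which overlapped the upper-quartile replicate 1 cluster 18885225 to 18892075, and 18927541 to 18929062 (0.42), which overlapped 18928590 to 18931737 (0.65 in replicate 1).

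In 10 kb bins counted from the window start, coverage was high in few places. The replicate mean was above 50% in 6 of 23 bins. It was highest at 210 to 220 kb, with 91.5% in replicate 1 and 76.0% in replicate 2, and at 160 to 170 kb, with 91.9% and 71.5%. In 5 bins neither replicate had a cluster, while no bin was without a combined cluster. Replicates differed by a median of 6.35 percentage points per bin. The largest difference, 45.0 points, was at 150 to 160 kb, a bin that takes in the left edge of the strongest site, with 45.7% in replicate 1 and 0.75% in replicate 2.

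**Figure D3:**
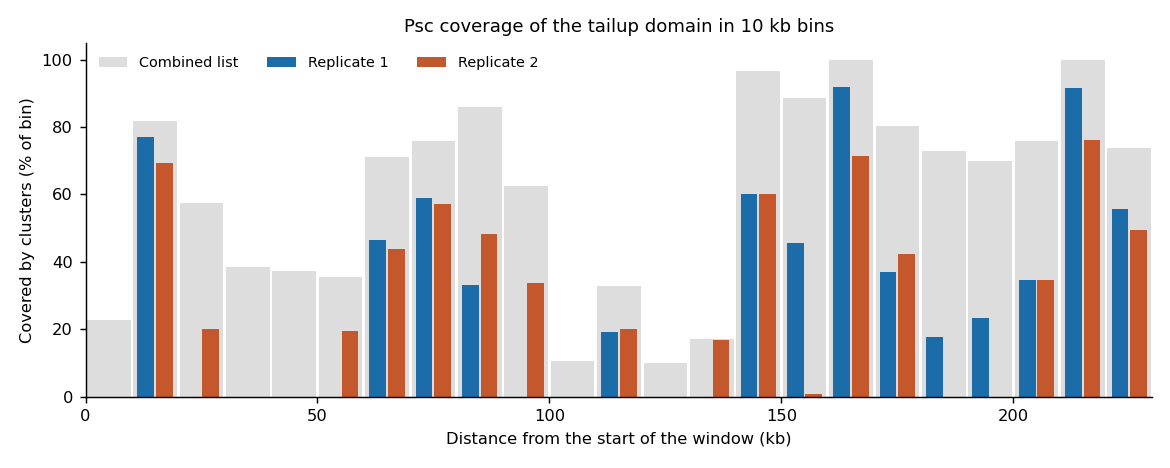
Share of each 10 kb bin of the tailup domain covered by Psc clusters (percent), by distance in kb from the window start, for replicate 1, replicate 2 and, as wide grey bars behind them, the combined list. Both replicates stand above 50% at 10 to 20, 70 to 80, 140 to 150, 160 to 170 and 210 to 220 kb, and neither has a cluster in 5 of the 23 bins.

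Long stretches of the domain held no replicate cluster. In replicate 1 the longest were 42.0 kb (18739614 to 18781624), 29.3 kb (18832063 to 18861322) and 23.3 kb (18806843 to 18830151). In replicate 2 they were 34.2 kb (18742511 to 18776699), 26.2 kb (18832165 to 18858329) and 22.8 kb (18898585 to 18921350). The first 2 stretches were largely the same in both lists, and the third was not. In the combined list the longest stretches without a cluster were 9.11 kb (18754335 to 18763448), 8.82 kb (18849478 to 18858300) and 8.49 kb (18839977 to 18848464). These combined gaps were all close to the 10 kb joining distance. The first lay in the longest empty stretch of both replicate lists, and those at 18839977 and 18849478 in the second longest of both.

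The combined clusters that met both replicate lists had a higher median width and score than those found in a single replicate list or in neither. The same held on 2L as a whole, where clusters found in both had medians of 3251.5 bp and 0.49. It also held in the rows on 3R and 2R compared below (5854.5 bp and 0.46, 8459 bp and 0.77), so it is not particular to the domain. Of the 42 clusters in the window, 12 (28.6%, 15.7 to 44.6) overlapped both replicate lists, against 13.5% of the whole combined list. A further 5 were found in replicate 1 only, against 13.0%, and 5 in replicate 2 only, against 10.1%. The other 20 (47.6%, 32.0 to 63.6) were found in neither, against 63.5%. The 12 found in both covered 81.9 kb, had medians of 5726.5 bp in width and 0.71 in score, and included 9 of the 10 clusters in the upper quartile of the list by score. The 20 found in neither covered 29.8 kb, had medians of 1340.5 bp in width and 0.34 in score, scored 0.27 to 0.42, and had 0 members in the upper quartile. Among these 20, 9 were narrower than 1301 bp, the width of the narrowest cluster in either replicate list. On 2L as a whole, the clusters found in neither had a median width of 1252 bp, also below 1301 bp, and scored 0.15 to 3.24. How upper-quartile clusters divided among these classes over the whole list was not examined.

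The widest combined cluster, 18873700 to 18892671 (18972 bp, score 1.03), took in the strongest site. It held 3 clusters of each replicate, which covered 73.1% of it in replicate 1 and 48.2% in replicate 2. The next in width, 18927296 to 18942154 (14859 bp, score 0.82), held 2 clusters of replicate 1 and 3 of replicate 2. The highest combined score was 1.57, at 18792019 to 18798173 (rank 82 of 8687), which is the second strongest site of the replicate lists. The strongest replicate site, 5603 bp wide in replicate 1 and 4146 bp in replicate 2, was thus part of a wider cluster in the combined list, which had rank 3 in the domain by score.

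The other combined clusters found in both lists were 18781642 to 18786288 (score 1.08), 18863949 to 18870516 (0.81), 18731606 to 18739774 (0.77), 18942210 to 18945457 (0.65), 18830070 to 18832255 (0.45) and 18799181 to 18802768 (0.43). The weakest were 18858301 to 18863598 (0.38), 18804178 to 18810386 (0.36) and 18946603 to 18948588 (0.35), the last cluster of the row. Of the combined clusters not found in both lists, the highest scores were 0.44 at 18896191 to 18900974 (found in replicate 2 only), 0.42 at 18746525 to 18747896 (found in neither) and 0.40 at 18905371 to 18908046 (found in replicate 1 only). The first cluster of the row, 18720946 to 18722097, scored 0.36 and was found in neither. The left end of the row therefore rested on the combined list alone, and its right end on all 3 lists.

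**Figure D4:**
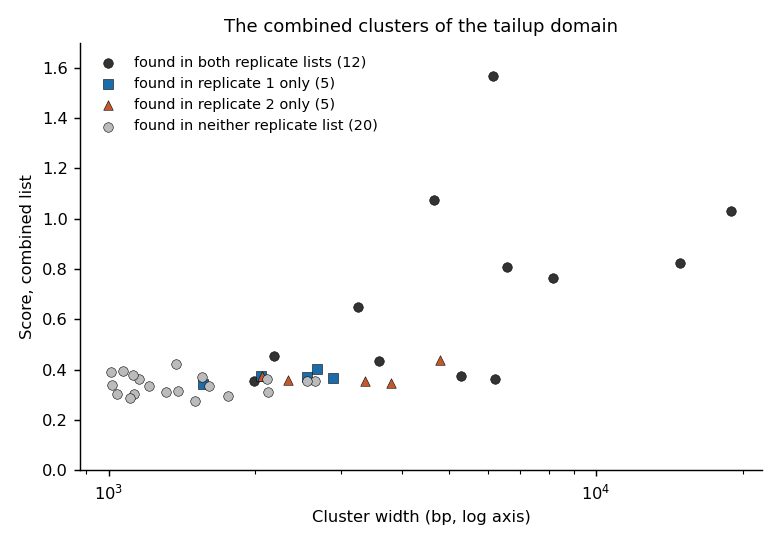
The 42 combined clusters of the tailup domain by width (bp, log axis) and score, marked by whether they overlap both replicate lists (12), replicate 1 only (5), replicate 2 only (5) or neither (20). All 7 clusters that score above 0.6 were found in both lists, and the 20 found in neither score 0.27 to 0.42.

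Just outside the window, the nearest combined clusters were 18707667 to 18709341 (score 0.27), 11.6 kb left of the first member, and 18967785 to 18969725 (0.32), 19.2 kb right of the last. Just inside, the outermost combined members scored 0.36 and 0.35. In replicate 2 the nearest outside clusters lay 22.4 kb to the left and 19.3 kb to the right of the outermost members, with scores of 0.45 each. In replicate 1 they lay 579 kb to the left (score 0.49) and 59.9 kb to the right (0.57). None of these outside clusters was in the upper quartile of its list by score; the highest was above 50.4% of the replicate 1 list.

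The rows nearest in length measured 226 kb (6294408 to 6520282 of 3R) and 243 kb (8757532 to 9000611 of 2R). Coverage in the tailup row, 29.8% ± 0.88 of its 228 kb (SD, n = 2), lay between that of the 3R row, 23.6% ± 6.5, and that of the 2R row, 53.3% ± 5.4 (SD, n = 2 each). The values of the tailup row, 30.4% and 29.2%, did not overlap those of the 2R row, 57.2% and 49.5%. They lay above those of the 3R row, 28.2% and 19.0%. With 2 replicates the differences were not tested. The length covered in both lists was 52.7% of that covered in either in the tailup row, 39.9% in the 3R row and 78.3% in the 2R row.

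The rows also differed in how their coverage was made up. The widest replicate clusters of the tailup domain were 8917 bp and 6921 bp in replicates 1 and 2, close to the 9187 bp and 6755 bp of the 3R row. Those of the 2R row were 93802 bp and 35563 bp. The highest scores, 1.77 and 2.20, stood beside 1.76 and 1.77 in the 3R row and 1.82 and 1.91 in the 2R row. In the combined list the tailup domain had 42 clusters, against 47 in the 3R row and 25 in the 2R row. Psc in the tailup domain was thus called as many clusters, none as wide as the widest of the 2R row, which is also how the 3R row was called. Many combined clusters of the tailup domain lay close together: 17 of the 41 gaps between them were under 1000 bp. Such gaps were not examined in the other rows. Upper-quartile clusters by score, 25% of each list, numbered 6 of 20 in replicate 1 and 8 of 22 in replicate 2 in the tailup domain. They numbered 4 of 24 and 4 of 17 in the 3R row, and 4 of 15 and 7 of 18 in the 2R row.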

How the data were processed

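The deposited files are 3 lists of enriched regions, 1 for each Psc ChIP sample and 1 for the replicate set, in FlyBase release 5 coordinates per the file headers. Bowtie 0.12.7 was used, per the submitters' processing notes; the calling program, its thresholds, the scaling of the libraries, the meaning of the score and the way replicates were combined are not stated in any source used here. Each score was made by the authors and used as deposited. The lists hold only regions above the authors' threshold, read depth is unknown, and no error could be given to a single score.

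Members are the clusters overlapping the window. Overlaps of at least 1 bp, covered lengths, percentile ranks within a list and joining within 10 kb were computed in Python 3.11.15 (numpy 2.4.6, pandas 2.3.3, scipy 1.17.1), checked on simulated intervals and against bedtools 2.31.1. No test was run, since the window was chosen on these lists and there are 2 replicates. Named regions are all replicate clusters of the window, the combined clusters found in both lists, the 3 highest-scoring others, the first and last, and the 3 longest gaps; named genes are tup and 3 neighbours on either side. The window, rules and alternatives were chosen with earlier results of these data known. No sequence is printed, since no release 5 genome was used here.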

Additional observations from a re-analysis of the deposited data

How the results depend on the processing

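Of 20 alternatives, 13 stayed within the spread or interval of the value reported. With 2 lists, leaving a replicate out always gives a value within the SD of their mean. For coverage and median percentile, those alternatives therefore could not move and say nothing about stability. The share of clusters met in the other replicate ranged over 55.0% to 80.0% in replicate 1 and 50.0% to 81.8% in replicate 2 under a 50% reciprocal overlap, the upper 50% of each list by score, or joining within 1000 bp. The lowest share in each list was that under a 50% reciprocal overlap. Shares of the whole replicate lists under these settings were not examined. Whether the domain stayed above its lists under them is therefore unknown. Coverage was 28.9% to 30.1% with either replicate left out and 20.7% with the upper 50% of each list by score, which holds fewer clusters. Of the combined clusters, 58.8% (10 of 17) met both replicate lists in the upper 50% of the combined list by score, against 23.1% of the whole list under that limit. When 50% of the cluster had to be covered it was 19.0% (8 of 42), against 11.1%, and among clusters of at least 1301 bp 36.4% (12 of 33), against 22.3%. The median percentile by score, 50.1 as the mean of both lists, was 58.1 among 2L clusters alone, and 45.5 to 54.7 with a replicate left out.

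The extent of the domain depended on the joining distance: 90.3 kb within 5 kb, when the row broke into 7 pieces, and 535 kb within 25 kb, when it took in clusters on both sides of the window. With a single replicate list in place of the combined one, it was 40.5 kb to 87.1 kb. No paired analysis was possible because each ChIP sample pairs only with an input that has no list or value to set against it. Unknown read depth limits every score and every cluster missing from a list.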
